A study of Homo sapiens with 2 samples.

Results

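Protein tyrosine phosphatases were followed by name in KYSE-170, a line of human squamous carcinoma cells of the oesophagus. The members are all probes whose gene symbol, brought to its current form, begins with PTPN, PTPR or PTP4A. The rule found 39 genes among the 12445 genes named on the array, and 42 probes among 24267, with 16 PTPN genes, 20 PTPR genes and 3 PTP4A genes. Cells of the first group were transfected with an oligoribonucleotide that the labels name ncRNA, and cells of the second group with one for miR-210, by the same reagent; the labels give no time after transfection. Each group was 1 sample on 1 Cy5 array of the same cell line, so no value has a replicate, no test between groups exists, and every difference below is between these 2 arrays.

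Protein tyrosine phosphatases remove phosphate from tyrosine with a catalytic cysteine and so oppose the tyrosine kinases. The PTPN genes encode the non-receptor enzymes, and the PTPR genes encode receptor-type proteins with an extracellular region. The PTP4A genes encode the small PRL phosphatases, which carry a prenyl anchor. In squamous epithelium these enzymes act on growth factor receptors, JAK kinases, Src family kinases and cell junctions. PTPN1, also called PTP1B, sits on the endoplasmic reticulum, acts on the insulin and leptin pathways, and has been reported as a target of miR-210.

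The mature miR-210-3p is shown because its seed, bases 2 to 8, sets which transcripts it can pair with. It comes from RefSeq (GRCh38.p14, chr11:568112-568133, minus strand), the seed is in capitals, and the arm that was transfected is not stated in the labels. The letters that pair with this seed in a transcript are ACGCACA; transcripts were not searched for them.

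hsa-miR-210-3p: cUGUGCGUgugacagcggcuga

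Promoter sequence is shown for PTPN1 and for PTPRK and PTPRM, which are of the same receptor subclass and were both lower on the miR-210 array. Each line gives the 250 bases before a RefSeq transcription start (GRCh38.p14), 5′ to 3′ on the gene's strand, and capitals mark the GC box letters GGGCGG on either strand. PTPN1 lies on the plus strand (chr20:50510133-50510382), PTPRK on the minus strand (chr6:128520600-128520849) and PTPRM on the plus strand, with a first start (chr18:7567066-7567315) and a second (chr18:7946625-7946874).

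PTPN1: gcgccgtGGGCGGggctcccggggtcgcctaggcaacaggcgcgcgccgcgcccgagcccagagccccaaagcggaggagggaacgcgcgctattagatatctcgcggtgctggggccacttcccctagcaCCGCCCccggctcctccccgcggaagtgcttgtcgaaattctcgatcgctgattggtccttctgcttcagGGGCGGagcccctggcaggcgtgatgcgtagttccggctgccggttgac
PTPRK: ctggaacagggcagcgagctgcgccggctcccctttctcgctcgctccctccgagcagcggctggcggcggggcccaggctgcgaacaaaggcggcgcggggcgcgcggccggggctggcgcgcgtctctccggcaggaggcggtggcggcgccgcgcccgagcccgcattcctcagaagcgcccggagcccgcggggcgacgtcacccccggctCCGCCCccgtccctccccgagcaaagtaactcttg
PTPRM first start: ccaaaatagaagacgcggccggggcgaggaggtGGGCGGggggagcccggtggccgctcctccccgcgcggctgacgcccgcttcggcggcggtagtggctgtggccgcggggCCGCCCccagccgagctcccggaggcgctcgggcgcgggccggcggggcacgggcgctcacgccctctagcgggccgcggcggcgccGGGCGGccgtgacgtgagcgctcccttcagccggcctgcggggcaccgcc
PTPRM second start: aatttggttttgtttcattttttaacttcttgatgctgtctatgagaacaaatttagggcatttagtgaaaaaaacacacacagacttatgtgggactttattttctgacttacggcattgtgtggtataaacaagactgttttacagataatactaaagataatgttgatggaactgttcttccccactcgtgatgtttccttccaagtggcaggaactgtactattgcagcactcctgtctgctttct

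The PTPN1 window of 300 bases, which runs on 50 bases past the start, held 4 GC boxes and 33 CpG dinucleotides, with the first box at position -243 and the last inside the transcript at 22. PTPRK had 1 GC box and 44 CpG, and the first start of PTPRM 3 boxes and 50 CpG. The second PTPRM start had no GC box and 2 CpG. RefSeq windows matched 32 of the 39 genes, with 54 starts, and a gene can have several. Of the 54 windows 27 held a GC box, against 45.0% of all 35116 windows in the table. For members kept by the level filter it was 18 of 35 windows (51.4%), against 65.1% of the 8005 windows of all genes kept. For members not kept it was 9 of 19 (47.4%), against 47.6% for named genes on the array not kept. The palindrome TTCNNNGAA, the letters of a STAT site, was in 0 of the 54 windows and in 7.66% of all windows. The motifs were searched on both strands and a match is a description of letters only.

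Differences are given as a log2 ratio, always miR-210 minus ncRNA, after quantile normalization of the pair of arrays. A gene was kept where the mean log2 level of its probe over both arrays reached the median probe, an intensity of 37.5. The deposited intensities had medians of 39 (ncRNA) and 36 (miR-210), and no member was near saturation. The filter kept 6681 genes of the array and 20 of the 39 phosphatase genes, namely 11 PTPN, 7 PTPR and 2 PTP4A. Among all genes with 2 or more kept probes, 251 in number, a single probe scattered around its gene with a SD of 0.44 on the log2 scale, which leaves out any difference between cultures or arrays. Intensities of different probes are not on a common scale, so levels are compared only between arrays, for the same probe or the same set of probes.

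The labelled cell type was checked against marker genes. Of 11 squamous markers on the array 10 were kept. Among them SFN read 12693 and 7094 (ncRNA and miR-210, in this order throughout) and KRT17 1541 and 2736. The summed intensity of the 11, as deposited, was 16499 and 11889. Such a sum follows its brightest probes, and most of it came from SFN. Of the 10 kept, 7 were above a log2 ratio of 0 and 3 under it, with a median of 0.3. TP63, a defining squamous factor, read 57 and 22 and was not kept. The part of these markers in the results was not tested. Of 12 leukocyte markers 1 was kept, and their summed intensity was 333 and 343. The summed intensity was 1082 and 1241 for 10 neuronal and endocrine markers, of which 7 were kept, 381 and 326 for 6 endothelial markers, of which 3 were kept, and 481 and 530 for 9 fibroblast markers, of which 4 were kept.

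As a family the phosphatases did not lie on one side. In RNA of a whole culture, fewer cells that express a gene and less RNA per cell cannot be told apart. Of the 20 kept genes 13 were above a log2 ratio of 0 and 7 under it, with a median of 0.12, against 50.8% above 0 and a median of 0.01 over all genes kept. At least 1.5-fold higher with miR-210 were 3 genes, PTPRE, PTPRR and PTPN13, where 11.9% of all genes kept passed the same fold. At least 1.5-fold lower was 1 gene, PTPN11, where 10.9% of all genes did. At 2-fold only PTPRE was left, in the higher direction, where 3.02% of all genes were 2-fold higher and 3.17% 2-fold lower. The 3 higher genes were all among the 6 members in the dimmest 2227 genes kept, of which 14.1% were at least 1.5-fold higher, and PTPRE and PTPRR were kept only through their miR-210 values. Without between-array normalization 2 members were at least 1.5-fold higher and 2 lower, where 7.94% and 15.5% of all genes kept were. The median of the members was then 0 and that of all genes was -0.12. The members' median thus lay 0.12 above that of all genes without normalization and 0.11 above it with normalization. With a filter at the 75th percentile it lay under it, by -0.07, over 10 genes.

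**Figure D1:**
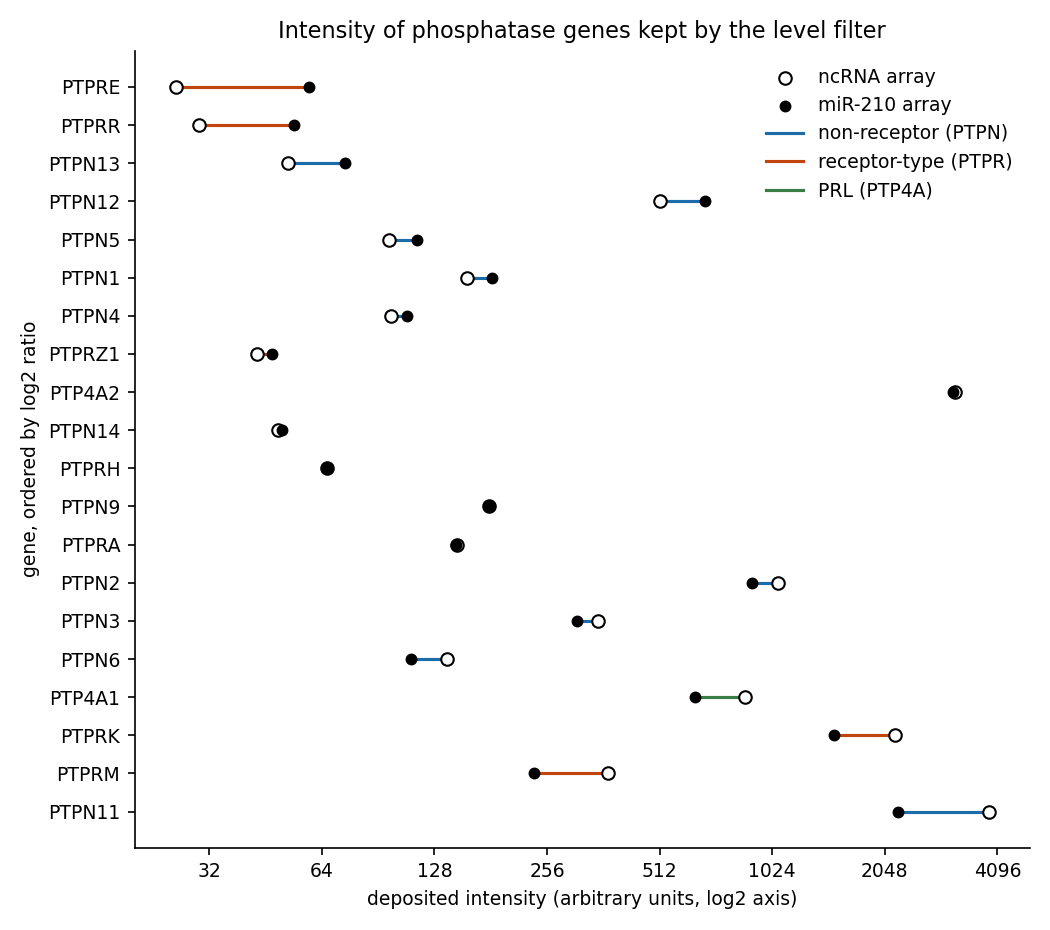
Deposited intensity of the 20 phosphatase genes kept by the level filter, on a log2 axis, with the ncRNA array as open and the miR-210 array as filled points and genes ordered by their log2 ratio after normalization. PTPRE and PTPRR start under an intensity of 32 on the ncRNA array, while PTPN11, at the bottom, goes from 3893 to 2220.

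PTPN11 had the lowest ratio of the 20 kept genes. It encodes SHP2, the SH2-domain phosphatase that passes signals from receptor tyrosine kinases to RAS. Its probe read 3893 and 2220, 1.55-fold lower after normalization (log2 ratio -0.63), and ranked 640 from the lowest among the 6681 genes. The ratio lay between -0.81 and -0.63 under all settings run. Among the 2227 brightest genes kept, to which PTPN11 belongs, 8.94% were at least 1.5-fold lower. RefSeq lists 5 pseudogenes of PTPN11, and whether its probe also binds their transcripts was not tested.

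PTPN6, or SHP1, the close relative of SHP2 best known from blood cells, had 2 kept probes. The brighter probe read 138 and 111 and the other 95 and 87, for log2 ratios of -0.22 and -0.01. Both were within 0.44 of 0. The probes of other blood-cell phosphatases read low. PTPRC, or CD45, read 9 and 10, its partner PTPRCAP, which is not a phosphatase, 28 and 28, and PTPN7 40 and 29. These 3 were not kept.

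PTPN1 was slightly higher, not lower, on the miR-210 array. Its only probe read 156 and 182, 1.26-fold higher after normalization (log2 ratio 0.34), and ranked 1605 from the highest. This is within the probe spread of 0.44, and the ratio lay between 0.22 and 0.34 under all settings run. PTPN2, or TC-PTP, its nearest relative and a phosphatase of nuclear STAT proteins and JAK kinases, read 1059 and 906, a log2 ratio of -0.06. The ratios of the pair therefore stood on either side of 0, each by less than the probe spread. RefSeq lists 2 pseudogenes of PTPN2.

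PTPN12, PTPN18 and PTPN22 form the PEST group, whose members bind scaffold proteins through proline-rich tails. PTPN12, which acts on adhesion proteins such as BCAR1, read 513 and 679, 1.44-fold higher and 0.53 on the log2 scale. PTPN18 read 28 and 40, and PTPN22, known from lymphocytes, 9 and 26, and neither was kept. All 3 read higher on the miR-210 array, but PTPN18 and PTPN22 lay under the level filter.

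A FERM domain, which links membrane proteins to the cytoskeleton, marks the next group. PTPN13, a large PDZ-domain phosphatase, read 52 and 74, 1.54-fold higher (log2 ratio 0.62), and stood at 0.53, under 1.5-fold, with an offset of 10. Without normalization it stood at 0.51, where all genes stood at -0.12. PTPN3 read 350 and 307 (-0.08), PTPN4 98 and 108 (0.26) and PTPN14, an inhibitor of YAP signalling, 49 and 50 (0.13). PTPN21 read 33 and 22, a log2 ratio of -0.51, and was not kept. Among the remaining PTPN genes, PTPN9, a phosphatase of secretory vesicles, read 179 on both arrays, which normalization placed at 0.11. PTPN5, or STEP, a phosphatase of neurons, read 97 and 115 (0.35). PTPN23, an endosomal member, read 25 and 15 and was not kept.

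**Figure D2:**
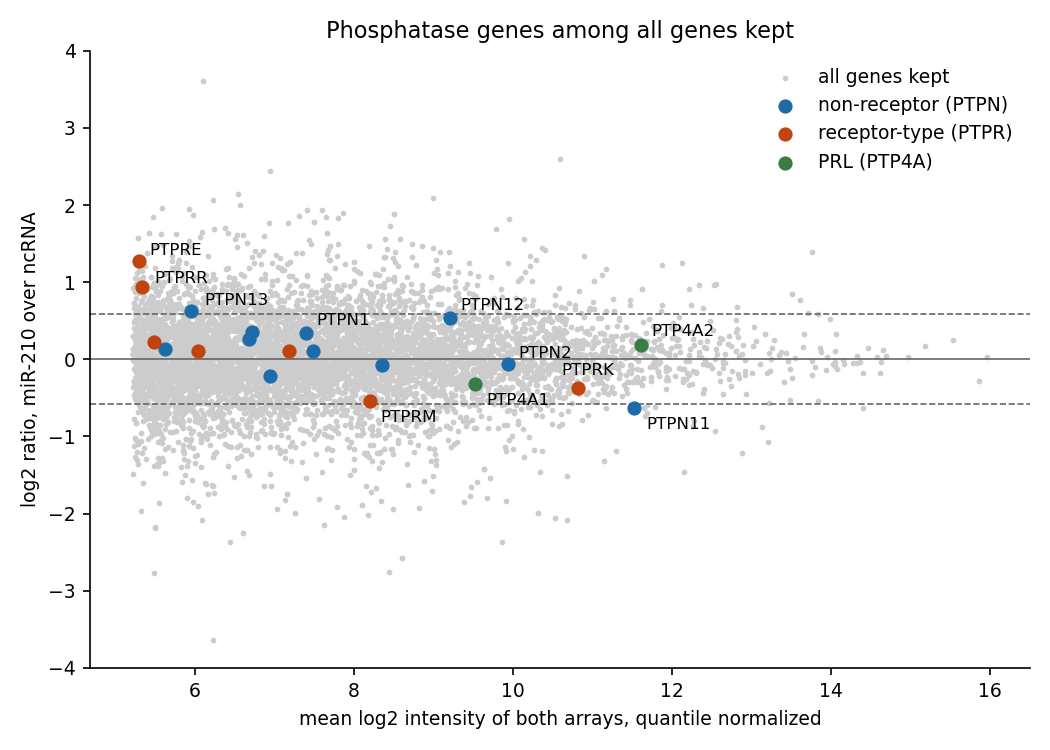
Log2 ratio of miR-210 over ncRNA against the mean log2 intensity for all 6681 genes kept (grey) and the 20 phosphatase genes (coloured by class), with dashed lines at 1.5-fold. PTPRE, PTPRR and PTPN13 lie above the upper line at the dim end, and PTPN11 under the lower line at the bright end.

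PTPRE had the highest ratio of the 20 kept genes. It is a close relative of PTPRA, and both can activate Src kinases by removing an inhibitory phosphate. Its brighter probe read 26 and 59, 2.41-fold higher (log2 ratio 1.27), rank 94 from the highest, and its other probe, which was not kept, read 9 and 13 (0.52). PTPRA differed little at either of its kept probes, with 147 and 146 (0.11) and 87 and 103 (0.36). Both probes of PTPRE thus read higher on the miR-210 array, by unequal amounts. The brighter probe was under the array median with ncRNA, and the other was under it on both arrays.

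PTPRR, a receptor-type phosphatase that binds MAP kinases, read 30 and 54, 1.92-fold higher (log2 ratio 0.94), rank 254 from the highest. PTPRE and PTPRR passed the filter only through their miR-210 values, as both were under the array median with ncRNA, so they had to read higher to be counted. Without them, among the 18 members at or above the array median on both arrays, 1 gene was at least 1.5-fold higher and 1 lower. Of all genes kept, to which the rule on both arrays was not applied, 11.9% were higher and 10.9% lower by that fold. The other MAP kinase phosphatases of this group, PTPN5 and PTPN7, stood at 0.35 and, under the filter, at -0.37. The neuronal and endocrine markers summed to 1082 and 1241, with TUBB3 alone at 221 and 437. Of the 7 kept markers, 4 were above a log2 ratio of 0 and 3 under it, with a median of 0. The part of these markers in PTPRR and PTPN5 was not tested.

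PTPRK, which binds its own kind on neighbouring cells and acts on cadherin complexes, read 2184 and 1497, 1.29-fold lower (log2 ratio -0.37). PTPRM, of the same subclass, read 372 and 237, 1.45-fold lower (-0.54), rank 860 from the lowest. PTPRM was past the probe spread of 0.44 and PTPRK was not; without normalization they stood at -0.65 and -0.54, where all genes stood at -0.12. PTPRU, the third member of the subclass on the array, read 14 and 13 and was not kept.

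PTPRH, a receptor-type phosphatase of gut epithelium, read 66 on both arrays (0.11). PTPRZ1, a receptor for pleiotrophin and midkine, read 43 and 47 (0.23). In all 13 PTPR genes, PTPRCAP included, were under the filter. Among them the LAR group genes PTPRF, PTPRS and PTPRD, receptors for heparan sulfate, read 22 and 22, 12 and 13, and 14 and 20. PTPRB, a phosphatase of endothelium, read 17 and 6, and PTPRJ, or CD148, 14 and 21. PTPRG read 17 and 14, PTPRO 5 and 9 and PTPRQ 10 and 16. PTPRN and PTPRN2, secretory granule proteins that lack tyrosine phosphatase activity, read 37 and 27, and 29 and 27.

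The PRL phosphatases promote growth and migration in many tumours. The probe of PTP4A2 read 3147 and 3120, a log2 ratio of 0.19, and of -0.01 without normalization, where all genes stood at -0.12. PTP4A1 read 867 and 635, 1.25-fold lower (-0.32). PTP4A3 read 11 and 19 and was not kept. RefSeq lists 7 pseudogenes of PTP4A1 and 2 of PTP4A2, and binding of their transcripts to the probes was not tested.

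In all, 20 member probes lay under the filter, between 5 and 40 with ncRNA and between 6 and 40 with miR-210. Of these, 12 were higher and 8 lower with miR-210, and 2 were 2-fold apart, PTPN22 higher and PTPRB lower. Under the filter 21.9% of all probes were 2-fold apart. Such values carry little weight at this intensity. Of the 20 kept genes, 6 were farther from 0 than the probe spread of 0.44, or 30.0%, where 34.8% of all genes kept were.

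Genes on which these phosphatases act were taken from lists. Of 22 substrates and partners of PTPN1 and PTPN2, 19 were on the array and 14 kept, with a median log2 ratio of 0. At least 1.5-fold higher were 3 (STAT3, STAT5B and CTNNB1) and at least 1.5-fold lower were 2 (CAV1 and IRS2), beside the 11.9% and 10.9% of all genes kept. STAT3, a transcription factor activated by JAK kinases, read 40 and 112, 3.0-fold higher. STAT5B, a related factor, read 55 and 151, 2.96-fold higher. CAV1, the main protein of caveolae, read 2671 and 612, 3.98-fold lower, and the insulin receptor substrate IRS2 read 77 and 47, 1.52-fold lower. STAT3, STAT5B and CAV1 were the 3 kept genes of the list past 2-fold, beside 3.02% higher and 3.17% lower of all genes kept. The kinase gene JAK1 read 478 and 454, and the receptor gene MET 167 and 166.

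Of 20 genes around SHP2 and RAS activation 15 were on the array and 8 kept, with a median of 0.26, 6 of them above 0, where 50.8% of all genes kept were. FRS3, an FGF receptor adaptor, was the 1 kept gene past 1.5-fold, beside 11.9% of all genes, at 34 and 52 or 1.64-fold higher, and was kept only through its miR-210 value. SOS1, an exchange factor for RAS, read 44 and 52 (0.34), HRAS 113 and 97 (-0.11) and the adaptor SHC1 356 and 307 (-0.10). None was 1.5-fold lower.

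Of 13 Src family kinases and their regulators 11 were on the array and 8 kept, with a median of -0.15. YES1, a ubiquitous Src family kinase, read 725 and 335, 2.0-fold lower, and was the 1 kept member past 1.5-fold, beside 10.9% of all genes lower by that fold. LYN read 995 and 690 (-0.38). MATK read 46 and 33 (-0.38) and was kept only through its ncRNA value. CSK, the kinase that inhibits the Src family, read 85 and 117 (0.57), and FRK 61 and 68 (0.26). Higher were therefore 3 members and lower 5, where 50.8% of all genes kept were above 0.

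Ligands and scaffolds of receptor phosphatases were mostly dim, with 7 of 25 genes on the array kept, where 6681 of all 12445 named genes were. The 7 had a median of -0.05, with 1 gene at least 1.5-fold higher and 1 lower, beside 11.9% and 10.9% of all genes kept. THBS1, a matrix protein and ligand of CD148, read 206 and 37, 5.16-fold lower, where its receptor gene PTPRJ was under the filter. CNTN1, an adhesion protein that binds PTPRZ1, read 40 and 71, 1.91-fold higher. Midkine, MDK, a ligand of PTPRZ1, read 475 and 469 (0.09), and IL1RAP, a partner of LAR group receptors, 271 and 172 (-0.54). Other phosphatases of the same catalytic type gave 14 kept genes of 20 on the array, with a median of 0.15. Of the 14, 1 was at least 1.5-fold higher and 1 lower, beside the same shares of all genes kept. MTMR2, a myotubularin that acts on phosphoinositides, was 1.52-fold higher at 669 and 924 and SSH3, a cofilin phosphatase, was 1.55-fold lower at 60 and 36. CDC25C, a mitotic activator of cyclin-dependent kinase, read 53 and 73 (0.57) and MTMR6 463 and 283 (-0.58).

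**Figure D3:**
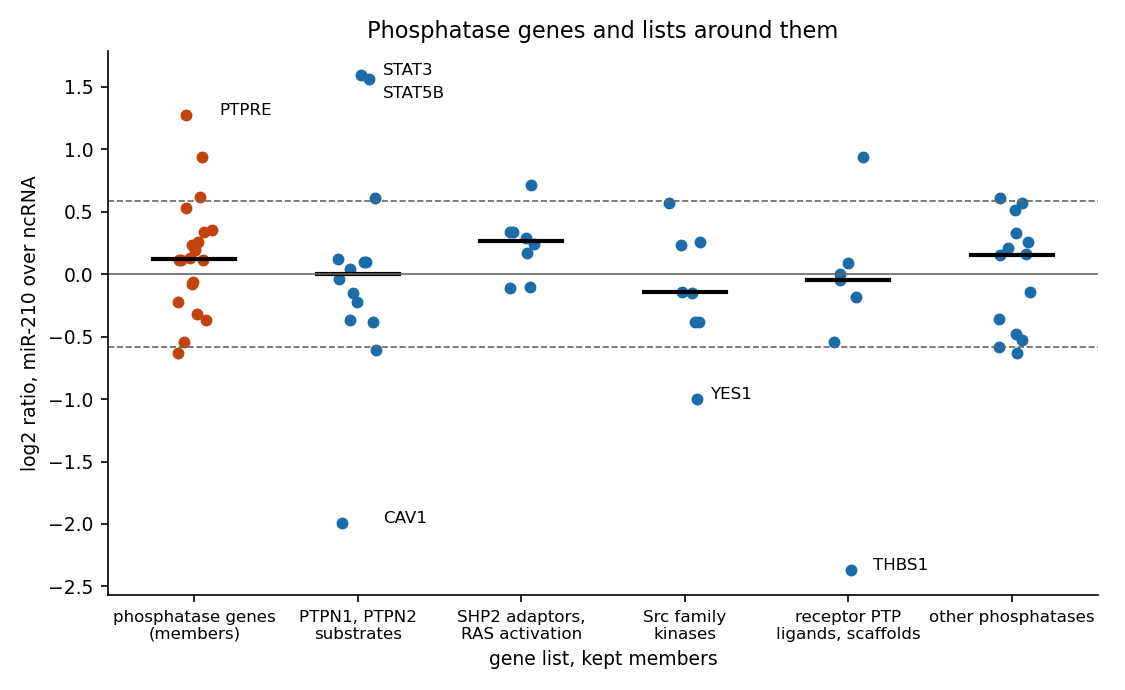
Log2 ratio of miR-210 over ncRNA for the kept phosphatase genes (red) and the kept members of 5 gene lists (blue), with horizontal bars at the medians, dashed lines at 1.5-fold and names for genes at least 2-fold apart. The medians lie between -0.15 and 0.26, and STAT3, STAT5B, CAV1, YES1 and THBS1 lie farthest out beside PTPRE.

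**Figure D4:**
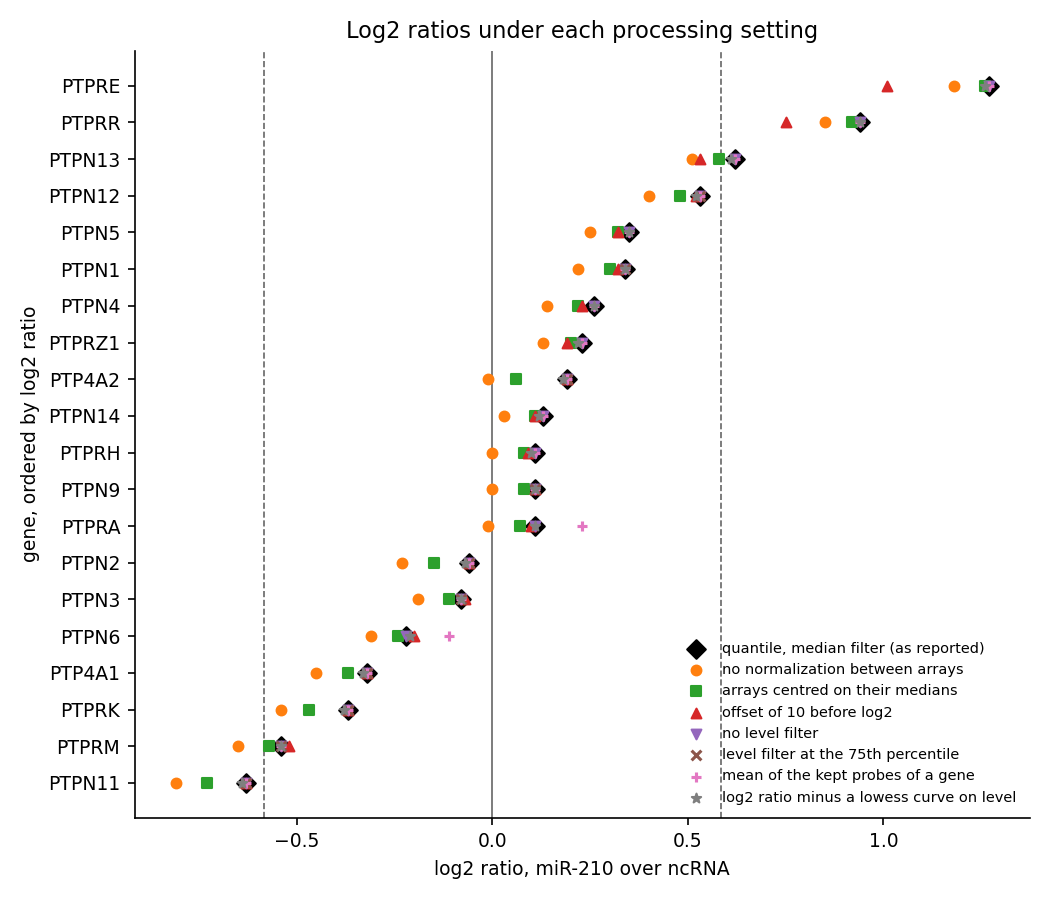
Log2 ratio of each of the 20 kept phosphatase genes under every processing setting, with dashed lines at 1.5-fold. PTPN11, PTPRE and PTPRR stay beyond 1.5-fold at every setting that holds them. PTPN13 and PTPRM cross the line without normalization, where the median of all genes is -0.12. PTPN13 also falls under it, to 0.53, with the offset of 10.

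Measured from the median of all genes at each setting, the 20 genes each stayed on 1 side in every setting that held them. This agreement was largely fixed beforehand, because every setting reuses the same pair of arrays. No normalization and median centring give the same distances. The filters and the probe mean leave the ratio of a gene with 1 kept probe as it was. Measured from 0, PTP4A2, PTPRA, PTPRH and PTPN9 went to 0 or -0.01 without normalization, where all genes stood at -0.12. The order of the extremes, PTPRE, PTPRR and PTPN13 above and PTPN11, PTPRM and PTPRK below, rests on 1 array per group.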

How the data were processed

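The table deposited by the authors holds 1 intensity value per probe and array on a linear scale, read as such from the values, which run from -8 to 65496. Values below 0 occur, so a background had been taken off; the scanner, this correction and any normalization by the authors were not stated in the labels or the table. Per the labels' protocols, 500 ng of total RNA went into each Cy5-labelled cRNA. The 24177 probes above 0 on both arrays were taken to log2 and quantile normalized in Python 3.11.15 (numpy 2.4.6, pandas 2.3.3), a step checked on simulated data. Symbols came from the platform annotation (13395 probes with 1 symbol, 10872 unnamed) and 2285 of 12474 were updated through RefSeq (GRCh38.p14). The brightest kept probe stood for a gene. With 1 array per group there are no tests, and counts past 1.5-fold and 2-fold are descriptions. Both intensities are given for kept members, and each list of genes around the phosphatases names its 2 farthest kept genes on each side. The marker lists do not follow this rule. Their single genes (SFN, KRT17, TP63, TUBB3), other list genes (CTNNB1, JAK1, MET) and the members under the filter were named after their values were seen. Members, lists and folds were chosen with earlier results of these data known. Alternatives were no normalization, median centring, an offset of 10, no filter, a filter at the 75th percentile, the mean over probes and, added after seeing the data, a lowess curve on level and members at or above the median on both arrays.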

Additional observations from a re-analysis of the deposited data

How the results depend on the processing

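Without normalization 2 kept phosphatase genes were at least 1.5-fold lower in place of 1. Over all genes kept the share lower by that fold was 15.5% in place of 10.9%. The median log2 ratio of the kept phosphatase genes was 0 in place of 0.12, as the median of all genes went from 0.01 to -0.12. Among all genes at least 1.5-fold apart, the share that was higher was 33.8% in place of 52.2%. With no level filter 9 of 39 genes were at least 1.5-fold higher and 3 lower, where 17.2% and 15.7% of all 12405 genes were. With the filter at the 75th percentile 10 genes remained, 0 of them 1.5-fold higher and 1 lower, where 10.6% and 9.37% of all 3467 genes were. Their median was -0.07, and fewer genes were counted there. With members at or above the median on both arrays the count of higher genes was 1 of 18 in place of 3 of 20. Of all genes kept, to which this rule was not applied, 11.9% were higher by that fold. Median centring, the offset, the mean over probes and the lowess curve moved none of these results beyond the probe spread or 1.5 times. A change of filter or the probe mean leaves the ratio of a gene with 1 kept probe as it was. Many single ratios therefore could not move at these settings, and the next count is no measure of certainty. Of the ratios of single members and the medians of classes and lists, 180 stayed within the probe spread, scaled to the number of genes, and 6 did not. These were, without normalization, the medians of the PTPN1 and PTPN2 substrates (-0.12) and of the other phosphatases (0.02), which moved as all genes did, and, with the filter at the 75th percentile, those of the PTPR genes (-0.46), the PTPN1 and PTPN2 substrates (-0.15), the SHP2 list (-0.1, 1 gene) and the Src list (-0.38, 3 genes). None of the 4 kept phosphatase genes past 1.5-fold changed its sign; genes under the filter were not rerun singly. Dim probes limit PTPRE, PTPRR and every member under the filter. No paired analysis was possible because each group had 1 array.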
